A study of Mus musculus with 6 samples.

Results

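Immune checkpoint ligands are surface or secreted proteins of tumor cells and antigen-presenting cells that bind receptors on lymphocytes and macrophages and restrain or, for some, costimulate them. The genes described here are a named list of 10 checkpoint and costimulatory ligand genes, Cd274, Pdcd1lg2, Cd276, Vtcn1, Cd47, Pvr, Nectin2, Lgals9, Cd80 and Cd86. They were chosen by name, with earlier results of these data known, and all 10 were among the 47643 gene identifiers of the count files. Their transcripts were counted in tumor cells sorted from 6 mammary tumors of female MMTV-PyMT mice on the FVB/N background, where a polyoma middle T antigen transgene is driven in mammary epithelium by the promoter of the mouse mammary tumor virus. All 6 tumors came from mice given the VEGF-A blocking antibody B20-4.1.1 at a dose of 5 mg/kg by intraperitoneal injection 2 times per week for 6 weeks from 7 weeks of age. The sort kept CD45- EPCAM+ cells, which depletes leukocytes and enriches epithelial cells. The paper's supplement also lists CD31 and PDGFRα as antigens absent from the sorted tumor cells. The study divides such treated tumors into low hypoxia (LH) and high hypoxia (HH) tumors, but the class of each of these 6 is not known here, so the tumors are 1 group, numbered 1 to 6, and no groups were compared.

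Among the ligands, PD-L1 (Cd274) and PD-L2 (Pdcd1lg2) bind PD-1 on T cells, and CD80 and CD86 bind CD28, which costimulates T cells, and CTLA-4, which restrains them. B7-H3 (Cd276) and B7-H4 (Vtcn1) belong to the same B7 family. CD47 binds SIRPα on macrophages and restrains phagocytosis, PVR (CD155) and nectin-2 (CD112) bind TIGIT and the activating receptor DNAM-1 on T and NK cells, and galectin-9 (Lgals9) is a secreted lectin that can bind TIM-3. In many tissues interferon γ raises transcription of Cd274.

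In these tumor cells 6 of the 10 ligand genes, Lgals9, Nectin2, Cd47, Pvr, Vtcn1 and Cd276, were above the detection floor in every tumor, and together they held 9935 of the counts over the 6 libraries. The other 4, Cd274, Cd86, Pdcd1lg2 and Cd80, held 39. The floor was set at 3 counts per library, which corresponds to 0.509 to 1.20 CPM, the counts scaled to a fixed library total of 1000000, since the libraries held 2509482 to 5893246 counts on genes. The summed level of the 10 genes was lowest in tumor 3 (285 CPM) and highest in tumor 1 (484 CPM). These are mRNA levels read near the 3′ end of each transcript, and surface protein was not analysed here. In such bulk samples, fewer cells that express a gene and less of its RNA per cell cannot be told apart.

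Epithelial markers were abundant in every library, with the 7 markers (among them Epcam, Krt18 and Cdh1) summing to 3957 to 4874 CPM. Endothelial markers, among them Pecam1 (CD31), summed to at most 3.88 CPM, and fibroblast markers, among them Pdgfra, to at most 25.9 CPM. CD31 and PDGFRα were themselves antigens of the sort. Lymphocyte markers summed to at most 1.94 CPM. The 4 neutrophil markers summed to 74.8 to 233 CPM, highest in tumors 4 (233 CPM) and 1 (178 CPM), nearly all of it S100a8, while S100a9 was at most 3.39 CPM and Csf3r had no count. The library of tumor 3 stood apart in the leukocyte and erythroid lists, but not in the neutrophil list (79.1 CPM). Its 16 leukocyte markers summed to 297 CPM against 22.5 to 63.9 CPM in the other tumors, all 16 were highest there, and its 5 erythroid markers summed to 864 CPM against 5.66 to 69.4 CPM. Ptprc, which encodes the CD45 antigen used in the sort, was at 3.39 CPM in tumor 3 and 0.797 to 3.05 CPM elsewhere. The library of tumor 1 stood apart across genes, since its log2 levels over 10416 genes correlated at a median of 0.845 with those of the other tumors, whose own medians were 0.927 to 0.954.

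The regulatory sequence just before the transcription start is shown for 3 genes that span the range of levels, the scarce Cd274 and the abundant Cd47 and Lgals9, as the 250 bases before the start of the RefSeq transcript, 5′ to 3′ on the strand of the gene, in GRCm38.p6. The Cd274 window lies at chr19:29367188-29367437 on the plus strand, that of Cd47 at chr16:49855404-49855653 on the plus strand and that of Lgals9 at chr11:78984925-78985174 on the minus strand. Capitals mark motif matches.
Cd274: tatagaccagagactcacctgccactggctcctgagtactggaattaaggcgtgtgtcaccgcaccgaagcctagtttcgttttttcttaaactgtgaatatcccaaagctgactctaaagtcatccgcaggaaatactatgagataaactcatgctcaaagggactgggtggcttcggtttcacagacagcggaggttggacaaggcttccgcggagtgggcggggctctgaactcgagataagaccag
Cd47: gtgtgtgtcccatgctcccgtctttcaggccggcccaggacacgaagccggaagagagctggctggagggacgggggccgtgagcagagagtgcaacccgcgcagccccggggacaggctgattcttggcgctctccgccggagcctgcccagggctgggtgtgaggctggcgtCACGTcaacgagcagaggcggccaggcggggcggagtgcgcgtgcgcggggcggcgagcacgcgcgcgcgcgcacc
Lgals9: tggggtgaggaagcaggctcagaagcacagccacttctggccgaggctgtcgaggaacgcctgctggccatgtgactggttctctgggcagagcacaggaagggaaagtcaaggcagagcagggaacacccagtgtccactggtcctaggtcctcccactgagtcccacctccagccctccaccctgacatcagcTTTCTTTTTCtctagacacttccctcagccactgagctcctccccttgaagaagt

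The motifs described here were searched on both strands in the promoters of the 8 ligand genes with an entry, which were all but Pvr and Cd86. An interferon-response motif, GAAA followed by any 2 bases and GAAA, was in 1 of the 8, Lgals9, ending 45 bases before the start, and in 2.98% of all 32851 promoters of this length. The ACGTG form of the hypoxia-response core was in 1 of the 8, Cd47, and in 16.6% of all promoters. The match in Cd47 ended 71 bases before the start. The GCGTG form was not searched and is not in capitals, and the printed Cd274 and Cd47 windows hold those letters. The matches of the motifs did not overlap. A match describes letters and not a bound site, and the count files hold no measure of binding.

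Cd274, which encodes PD-L1 and lies at chr19:29367455-29388095 on the plus strand (GRCm38, GENCODE M21), was scarce in every tumor. It had 3, 3, 10, 8, 5 and 2 counts in tumors 1 to 6, in that order. On the CPM scale these were 0.509, 1.20, 2.42, 1.70, 0.998 and 0.390, so tumors 3, 4 and 5 were above the floor and tumors 1, 2 and 6 at or under it. Pooled over the 6 libraries, 31 counts gave 1.13 CPM (95% exact Poisson interval 0.770 to 1.61, counting error only). The intervals of 5 of the 6 tumors held that pooled level, and that of tumor 3 (1.16 to 4.46 CPM) began just above it. The counts were highest in tumor 3 and lowest in tumor 6, and the difference between tumors was not tested. Tumor 3 also carried the most leukocyte transcripts, and cells such as macrophages can express Cd274. The part of the leukocyte transcripts in the Cd274 counts was not tested. An antisense gene, AC119228.1, overlaps exons of Cd274 but is not among the identifiers of the count files, so it has no counts here. Whether the counting used the strand is not given in the sources used here.

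**Figure D1:**
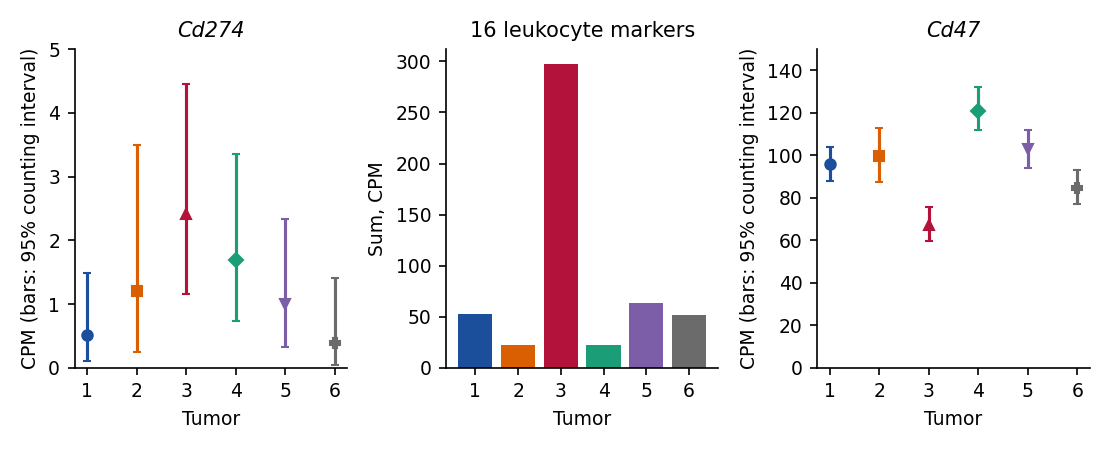
Cd274 (CPM), the summed level of 16 leukocyte markers (CPM) and Cd47 (CPM) in tumors 1 to 6, with points for single libraries, bars in the middle panel for sums, and error bars for 95% exact Poisson intervals. Tumor 3 had the highest Cd274 (2.42 CPM), the highest leukocyte sum (297 CPM) and the lowest Cd47 (67.4 CPM).

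Pdcd1lg2, the gene of PD-L2, which follows Cd274 on chromosome 19 (chr19:29410919-29471161, plus strand), had 1 count in tumor 1 and none in the other tumors. Cd80 (chr16:38455561-38496335, plus strand) had 1 count in tumor 4 and none elsewhere. Cd86 (chr16:36603869-36666081, minus strand) had 2 counts in each of tumors 1, 3 and 5 and none in tumors 2, 4 and 6. None of the 3 was above the floor in any tumor, and their pooled levels were 0.0366 CPM for Pdcd1lg2 (0.000925 to 0.204), 0.0366 CPM for Cd80 (0.000925 to 0.204) and 0.219 CPM for Cd86 (0.0805 to 0.477). Cd80 and Cd86 mark activated antigen-presenting cells. The dendritic cell markers Flt3, Xcr1, Clec9a and Cd209a had no count in any library, and the 7 dendritic cell markers summed to at most 6.30 CPM, nearly all of it Itgax in tumor 3.

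The B7-family genes Cd276 and Vtcn1 were well above Cd274. Cd276 (chr9:58524298-58555437, minus strand) was at 14.4, 20.3, 12.4, 14.3, 30.1 and 18.2 CPM in tumors 1 to 6, in that order. Tumor 5 was the highest, and its 95% counting interval (25.5 to 35.4 CPM) overlapped that of tumor 2 (15.1 to 26.7 CPM) but not those of the other 4. An unclassified transcript on the opposite strand, Gm10657, overlaps exons of Cd276 but had 0 to 4 counts. Vtcn1 (chr3:100825459-100896922, plus strand) was at 33.8, 20.3, 25.5, 20.6, 19.8 and 24.4 CPM in tumors 1 to 6, in that order. Tumor 1 was the highest for Vtcn1, and the other 5 lay close together. Per length, as TPM, counts per exon length scaled to the same total, Cd276 exceeded Cd274 in 6 of 6 tumors, by a median of 22.4 times (5.05 to 46.0).

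Cd47, whose product tells macrophages not to engulf the cell, lies at chr16:49800533-49915010 on the plus strand. It was at 95.9, 99.6, 67.4, 121, 103 and 84.9 CPM in tumors 1 to 6, in that order. Tumor 3 was the lowest and tumor 4 the highest, and their 95% counting intervals (59.7 to 75.8 and 112 to 132 CPM) were far apart. Without tumor 3, the other 5 lay between 84.9 and 121 CPM.

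Pvr and Nectin2 encode related adhesion proteins that share the receptors TIGIT and DNAM-1, and both genes lie on the minus strand of chromosome 7 (chr7:19903578-19921160 and chr7:19716644-19750483). Pvr was at 75.2, 94.0, 44.9, 63.4, 64.1 and 37.9 CPM in tumors 1 to 6, in that order. Nectin2 was at 106, 61.4, 54.6, 62.1, 67.5 and 66.0 CPM in tumors 1 to 6, in that order. Their patterns over the tumors differed. Tumor 2 was the highest for Pvr and tumor 6 the lowest, whereas Nectin2 was high in tumor 1 and lay between 54.6 and 67.5 CPM in the other 5. The Pearson correlation of Pvr with Nectin2 over the 6 tumors was 0.267 on log2 levels, and 0.143 without tumor 1. Gm20512, on the strand opposite Nectin2, had 3 counts in tumor 1 and none in the others.

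Lgals9, the gene of galectin-9 (chr11:78962974-78984946, minus strand), was at 158, 71.7, 77.6, 59.3, 78.3 and 77.3 CPM in tumors 1 to 6, in that order. Tumor 1 was the highest, and its 95% counting interval (148 to 168 CPM) lay above those of the other 5, which reached at most 86.6 CPM. None of the 251 windows of 50 bases in the last 300 bases of the longest transcript of each of the 10 genes was held by another gene's annotated transcripts. That search read transcripts in their own direction only and did not cover overlap with genes on the opposite strand.

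**Figure D2:**
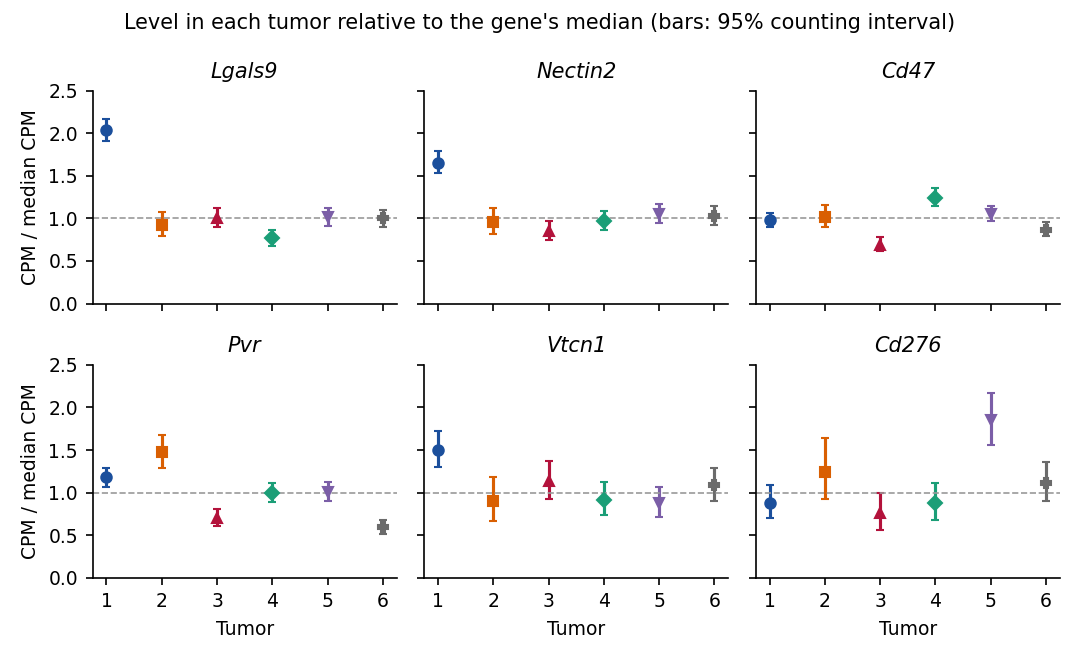
CPM of each of the 6 detected ligand genes in tumors 1 to 6, divided by that gene's median over the tumors (dashed line at 1), with 95% exact Poisson intervals as error bars. Tumor 1 is high for Lgals9, Nectin2 and Vtcn1, tumor 2 for Pvr and tumor 5 for Cd276, and tumor 3 is low for Cd47.

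To order the genes by level, counts were divided by exon length. The median TPM was 90.4 for Lgals9, 46.6 for Nectin2, 40.1 for Cd47, 26.7 for Pvr, 21.8 for Vtcn1, 11.2 for Cd276, 0.780 for Cd274 and 0.119 for Cd86, and 0 for Pdcd1lg2 and Cd80. Lgals9 exceeded Nectin2 in 6 of 6 tumors, Nectin2 exceeded Cd47 in 5, Cd47 exceeded Pvr in 6, Pvr exceeded Vtcn1 in 3, and Vtcn1 exceeded Cd276 in 5. On this scale Pvr and Vtcn1 were not ordered beyond their spread over the tumors (ratio 0.665 to 1.98), but Pvr exceeded Vtcn1 in 6 of 6 tumors by CPM (ratio 1.55 to 4.63), and with the length of the longest transcript their medians were 45.9 and 17.8 TPM. Among genes with a median above 0, 93.0% had a lower median TPM than Lgals9, 59.5% than Cd276 and 19.1% than Cd274. Because a 3′ library reads a transcript near its end whatever its length, the order without length is given as well. By median CPM it was Cd47 (97.7), Lgals9 (77.5), Nectin2 (64.0), Pvr (63.7), Vtcn1 (22.5) and Cd276 (16.3), so that Cd47 moved to the top, while the 4 scarce genes kept their places.

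**Figure D3:**
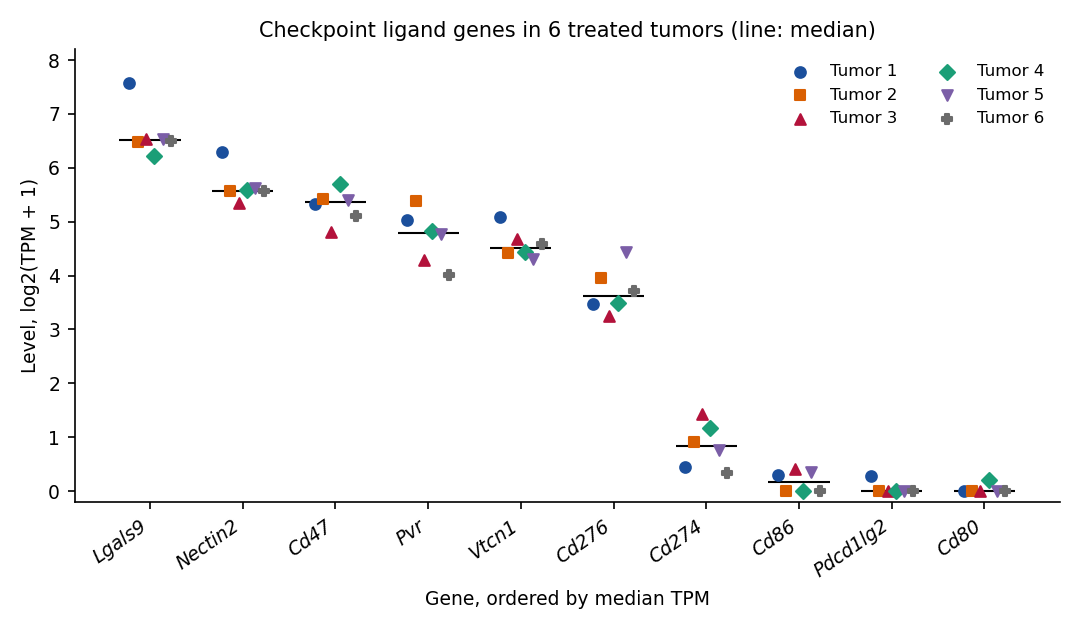
Level of the 10 ligand genes in each tumor as log2(TPM + 1), ordered by median TPM, with 1 symbol per tumor and a line at the median. The 6 genes from Lgals9 to Cd276 lie above the 4 scarce genes in every tumor, with medians of 11.2 to 90.4 TPM against at most 0.780 TPM.

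The detected ligand genes differed in how much they varied between tumors, Cd276, Lgals9 and Pvr more than Nectin2, Cd47 and Vtcn1 with all 6 libraries. The biological coefficient of variation (BCV), the variation left after counting noise, was 0.338 for Cd276, 0.321 for Lgals9, 0.312 for Pvr, 0.216 for Nectin2, 0.199 for Cd47 and 0.168 for Vtcn1, against a median of 0.284 over the 10416 genes that passed the filter on low counts. The ratio of the BCV to the trend for genes of like level was 0.478 for Vtcn1, 0.575 for Cd47 and 0.904 to 0.941 for Pvr, Lgals9 and Cd276, with Nectin2 in between (BCV 0.216 against a trend of 0.346), and had a median of 0.807 over all genes. Of all genes, 59.5 to 62.4% had a lower ratio than Pvr, Lgals9 or Cd276, and 18.4 to 32.2% a lower one than Vtcn1, Cd47 or Nectin2. By this measure 0 of the 6 lay above the trend, against 32.8% of all genes. Several values rested on 1 library. Without tumor 1 the BCV was 0.125 for Lgals9, 0.108 for Nectin2 and 0.0985 for Vtcn1, and without tumor 3 it was 0.107 for Cd47. Without tumor 1, Cd276 and Pvr lay above it, without tumor 2 or 6 Cd276 did, and without tumor 5 Pvr did. After TMM scaling, the highest tumor was over 2 times the lowest for 3 of the 6 (Cd276 2.54, Lgals9 2.51 and Pvr 2.36), while 63.6% of all genes tested passed that mark. Without tumor 1 the ratio of Lgals9 was 1.45, without tumor 2 that of Pvr was 1.65, and without tumor 5 that of Cd276 was 1.84.

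**Figure D4:**
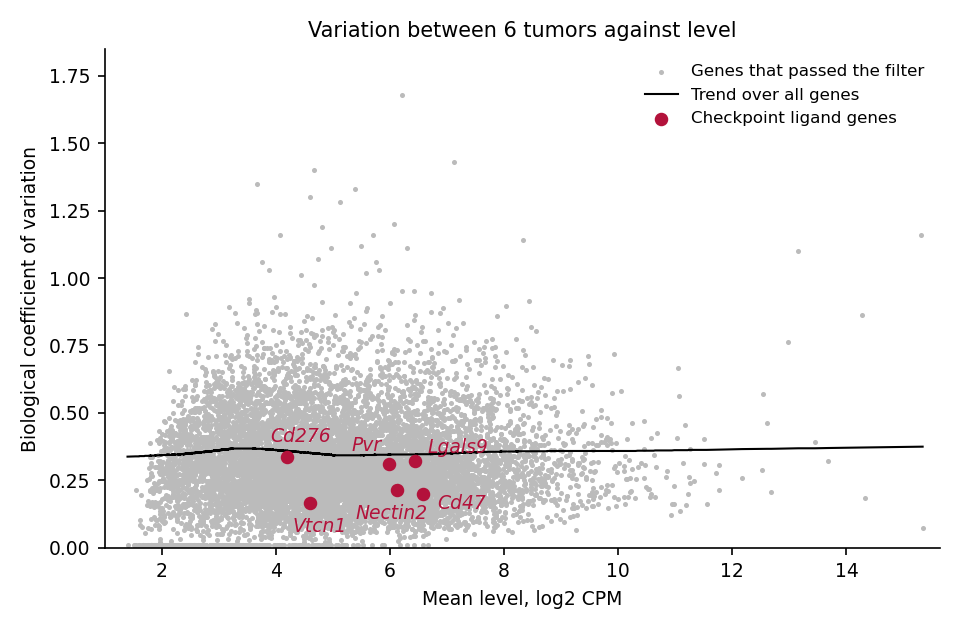
Biological coefficient of variation between the 6 tumors against mean level (log2 CPM) for the genes that passed the filter (grey), the trend over them (black line) and the 6 detected ligand genes (red). All 6 lie under the trend, Vtcn1 farthest (0.168 against 0.352).

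Some of the ligand genes shared their highest tumor. Tumor 1 was the highest for 3 of the 6, Lgals9, Nectin2 and Vtcn1, and for 37.1% of all genes tested. By Dixon's ratio, the gap of the extreme tumor to its neighbour over the whole range, 2 of the 6 passed its 95% critical value for 6 samples, Lgals9 (0.808) and Nectin2 (0.749), both with tumor 1 high. The same held for 17.1% of all genes tested in either direction and for 12.0% with tumor 1 highest. With TMM scaling 1 of the 6 passed. Nectin2 and Lgals9 correlated at 0.874 over the 6 tumors but at 0.418 without tumor 1, and Vtcn1 and Lgals9 at 0.849 and 0.543. The other 13 of the 15 pairs lay between -0.495 and 0.683, and between -0.722 and 0.746 without tumor 1, where Vtcn1 and Nectin2 went from 0.683 to near 0 and Cd276 and Nectin2 from 0.0459 to 0.746. These are descriptions over 6 libraries scaled together.

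Next, the levels of the 6 detected ligand genes were related to a leukocyte score, an interferon γ response score and the 3-gene hypoxia score (Vegfa, Slc2a1 and Car9), by Pearson's r over the 6 tumors with two-sided exact permutation p-values, adjusted by Benjamini-Hochberg over all genes tested for that score. No relation passed an adjusted p of 0.05 for any of the 6 genes or for any gene tested, and the smallest adjusted p was 1.00 for the leukocyte score, 0.396 for the interferon score and 0.964 for the hypoxia score. With 6 tumors the smallest possible exact p is 0.00139, so an adjusted p under 0.05 would need many genes at that value at once. The lack of adjusted relations therefore says little about whether relations exist. The hypoxia score was 48.5, 37.2, 51.4, 76.6, 94.4 and 47.3 TPM in tumors 1 to 6, in that order.

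Of the 18 relations, that of Cd47 with the leukocyte score had the largest r in size. Its r was -0.932 (exact permutation p = 0.0208, adjusted p = 1.00) and Spearman's rho -0.886 (exact p = 0.0333). It was the 1 of 6 ligand genes with an unadjusted p under 0.05 for that score, which 2.03% of all genes tested reached. Leaving out tumors 2 and 3, the farthest from the median of the score, gave r = -0.918, and these 4 tumors are also those whose mouse identifiers begin with QAF. The 2 tumors with the QSD prefix are too few for a value of their own. Without tumor 3 alone, r was -0.689 (exact permutation p = 0.225), and without tumor 6 it was -0.923, with an exact permutation p no longer under 0.05. Only 2 of the 16 leukocyte markers were above the floor in every tumor, so low counts enter the leukocyte score. That score was lowest in tumor 2 (0.760), the library with the fewest counts, and highest in tumor 3 (3.28). The part of depth in the score was not tested.

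For Pvr, r with the leukocyte score was -0.746 (exact permutation p = 0.0750, adjusted p = 1.00), and -0.350 without tumors 2 and 3. The interferon score itself ran only from 4.34 in tumor 1 to 4.61 in tumor 3 on its log2 scale. With that score, r of Pvr was -0.775 (exact permutation p = 0.0694, adjusted p = 0.596), and rho was -0.829 (exact p = 0.0583). This r was -0.833 without the 2 farthest tumors and -0.767 within the 4 QAF tumors. With CPM in place of TMM scaling it was -0.592 (exact permutation p = 0.217). For the interferon score 0 of the 6 genes had an unadjusted p under 0.05, against 8.62% of all genes tested. With DESeq2's size factors Pvr did (r = -0.862, exact permutation p = 0.0333, adjusted p = 0.633), and without tumor 1 Cd47 did (r = -0.840, exact permutation p = 0.0417, adjusted p = 0.743). The share of all genes is for the main setting and is not given for these alternatives.

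For the hypoxia score 0 of the 6 had an unadjusted p under 0.05, against 4.21% of all genes tested. The r was -0.515 for Vtcn1, -0.330 for Lgals9, -0.160 for Pvr, -0.152 for Nectin2, 0.308 for Cd276 and 0.329 for Cd47. The exact permutation p-values ran from 0.299 to 0.779. Without the 2 farthest tumors r became 0.643 for Vtcn1, -0.784 for Cd276 and -0.767 for Cd47, whereas within the 4 QAF tumors it was -0.931, 0.538 and 0.692. With each single tumor left out, Vtcn1 and Cd47 kept their sign (-0.890 to -0.264 and 0.106 to 0.611), and Cd276 changed it without tumor 5 (-0.537). Cd274 did not pass the filter on low counts. With no filter, its r was 0.340 with the leukocyte score, 0.362 with the interferon score and 0.173 with the hypoxia score (adjusted p of 0.903 or more, exact permutation test), and with 2 to 10 counts per library these values carry little information. Cd274 was at 0.998 CPM in tumor 5 and 1.70 CPM in tumor 4, the tumors with the highest hypoxia scores.

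Transcripts of regulators of PD-L1 and CD47 were detected in each tumor. All 20 genes of that list were above the floor in every tumor, led by Stat3 (median 915 CPM, 247 TPM), Jak1 (644 CPM, 230 TPM) and Irf1 (276 CPM, 179 TPM), signal transducers and a transcription factor of the cytokine response. Of the interferon γ response list 15 of 20 were above the floor in every tumor, led by B2m (median 576 CPM, 1719 TPM), Tapbp (288 CPM, 202 TPM) and Irf1. The chemokine gene Cxcl9 and the GTPase gene Gbp5, which are strongly induced by interferon γ in many cells, were at or under the floor in every tumor. The other GTPase genes of that list were above the floor in every tumor. They were Gbp7 (median 64.3 CPM), Iigp1 (62.0 CPM), Igtp (52.0 CPM), Irgm1 (24.3 CPM), Gbp2 (24.2 CPM) and Gbp3 (10.1 CPM). Cmtm6, whose product keeps PD-L1 at the cell surface, was at 22.1, 20.7, 78.8, 49.8, 93.8 and 77.3 CPM in tumors 1 to 6, in that order. Cmtm6 was lowest in tumors 1 and 2.

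Few receptors of the ligands were detected throughout. Of 12 binding partners 11 were in the files under the symbols used, 5 of them at or under the floor in every tumor and 3 above it in every tumor, Cd44 (median 134 CPM), Thbs1 (85.8 CPM) and Sirpa (19.0 CPM), an adhesion receptor, a secreted ligand of CD47 and the receptor of CD47. Sirpa was highest in tumor 3 (33.9 CPM), as were the leukocyte markers, and their part in it was not tested. Tigit had no count in any tumor, Pdcd1 had 1 count in tumor 3, Ctla4 had 2 counts in tumor 1, and Havcr2, the gene of TIM-3, had 0 to 4 counts.

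Of 20 other ligand genes of immune receptors 10 were above the floor in every tumor, 9 were at or under it in every tumor, and Fgl1, Tnfsf4 and Cd48 among those 9 had no count. The 3 highest by median CPM were Cd24a (269 to 428 CPM), a ligand of inhibitory Siglec receptors, Lgals3 (118 to 278 CPM), the galectin-3 gene, and Ceacam1 (88.8 to 193 CPM), an adhesion molecule that can bind TIM-3. Per length their medians were 341 TPM for Cd24a, 319 TPM for Lgals3 and 51.9 TPM for Ceacam1, with Hmgb1 above Ceacam1 at 57.5 TPM, against 90.4 TPM for Lgals9, the most abundant of the 10 listed ligand genes on that scale. Vsir, which encodes the checkpoint protein VISTA, was at 108 CPM in tumor 1, its highest, with 22.3 to 60.3 CPM elsewhere.

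For each of the 6 detected ligand genes, the 3 genes with the most similar pattern over the 6 tumors were sought among 8667 genes with a median of at least 10 CPM, by Pearson's r of log2 levels. They were Iars (0.974), Sco1 (0.957) and Stc1 (0.956) for Cd276, Gramd3 (0.996), Mrps6 (0.991) and Fam213b (0.988) for Vtcn1, and Pdxk (0.952), Ranbp2 (0.951) and then Rfc1 for Cd47. For Pvr they were Dis3l2 (0.975), Adamts8 (0.965) and Ptpn14 (0.962). For Nectin2 they were Gm11478 (0.998), Rps13-ps2 (0.995) and Sco2 (0.989), and for Lgals9 Fam241b (0.992), Rps19 (0.991) and Polr2i (0.990). The number of genes with r over 0.95 was 115 for Lgals9, 70 for Nectin2 and 48 for Vtcn1, the genes highest in tumor 1, and 2 to 6 for Cd47, Cd276 and Pvr. With 6 points such values are reached by many genes, and they are given as a description with no test.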

How the data were processed

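Sorted CD45- EPCAM+ cells of 6 B20-4.1.1-treated tumors were sequenced with QuantSeq 3′ FWD libraries. Per the labels and the submitters' processing notes, trimming used bbduk, alignment STAR 2.5 against GRCm38/mm10, and counting HTSeq. The authors deposited unnormalized read counts per gene. A library module with 6-base molecular identifiers was used. Whether reads were collapsed by them, the strand setting and the annotation release are not given in the sources used here, and intervals and floors therefore hold counting error alone. Lines that name no gene (16.1 to 41.4% of reads) were left out.

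From the counts, CPM, TMM-scaled CPM (edgeR 4.0.16, R 4.3.3) and TPM (union exon lengths of GENCODE M21) were computed. Of 47643 identifiers 47224 had a symbol and a length. Genes were filtered with filterByExpr (minimum count 10, minimum total 15), which left 10416 genes and 6 of the 10 ligand genes, and dispersion was estimated per gene with no shrinkage. Scores were the mean log2(TMM-scaled CPM + 1) of the leukocyte and interferon γ lists and log2 of the mean TPM of the 3 hypoxia genes, a gene never being related to a score that holds it. Correlations used all 720 orders of the tumors. The labels name 6 separate samples of 1 group. Each permutation p-value is the share of the orders of the tumors that gave an r at least as large in size. Statistics were tested on simulated data. Promoters are from RefSeq (GRCm38.p6), with 8 of the 10 genes matched. A further motif that was searched is not reported here. Named genes were the 10 ligand genes, the 3 highest by median CPM and the absent genes of each list with those needed to describe it, and the 3 most similar genes per ligand gene. Cmtm6, Vsir, Hmgb1, Havcr2 and the detected GTPase genes of the interferon γ list were named after their values were seen. The ligand genes and lists were chosen with earlier results of these data known. Alternatives were other scalings (DESeq2 1.42.0 size factors among them), pseudocounts, filters, gene lengths and each tumor left out. Python 3.11.15 was used.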

Additional observations from a re-analysis of the deposited data

Results flagged for a closer look

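In 9 of 24 measures (the 10 ligand genes and the summed levels of 14 marker and pathway lists), 1 tumor stood so far from the others that its gap to the nearest, divided by the range of the 6, passed Dixon's 95% critical value for 6 samples. Chance alone flags about 1 in 20 such groups, while in these libraries 17.1% of all 10416 genes tested passed that value. The measures are not independent, since lists share genes and all were read from the same libraries.

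Of the ligand genes, Lgals9 had a ratio of 0.808 and Nectin2 of 0.749, both because tumor 1 was high. Pdcd1lg2 and Cd80 each had a ratio of 1.00, which comes from a single count in 1 library, in tumor 1 for Pdcd1lg2 and in tumor 4 for Cd80, with no count in the other 5.

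Of the lists, the summed level of the erythroid markers had a ratio of 0.926, the leukocyte markers 0.850, the dendritic cell markers 0.836 and the lymphocyte markers 0.650, each with tumor 3 high. The interferon γ response genes had a ratio of 0.714, with tumor 1 high at 2046 CPM against 1479 to 1641 CPM in the others. Tapbp was at 613 CPM in tumor 1 and 229 to 307 CPM elsewhere. What these libraries have in common beyond the values given was not tested.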

How the results depend on the processing

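No paired analysis was possible because all 6 samples belong to 1 group. Of 90 recomputed medians of the ligand genes 88 moved by less than 1 SD over the tumors. The medians of Pdcd1lg2 and Cd80 were 0 and could not move. A median with 1 tumor left out can shift only to a neighbouring value, so much of this count was nearly fixed in advance. Leaving the 10 most abundant genes out of each library total raised the median of Vtcn1 to 28.4 CPM and of Cd47 to 117 CPM, since that total is the divisor. The count of 6 ligand genes above the floor in every tumor was 6 with a floor of 10 counts and with each tumor left out. In the order by level, the longest transcript in place of the union of exons moved Pvr above Cd47, and CPM moved Cd47 to the top. With TMM scaling 1 ligand gene in place of 2 passed Dixon's value. With each tumor left out in turn, 0 to 2 ligand genes lay above the trend of variation, 0 to 1 had an unadjusted exact p under 0.05 with the leukocyte score, 0 to 1 with the interferon score, and with DESeq2's size factors 1 had one with the interferon score. The shares of all genes under these alternatives are not given here, so these counts have no background beside them. The 0 ligand genes with an adjusted p under 0.05 stayed 0 under every alternative run for the 3 scores. With so few orders of the tumors such a p was nearly out of reach, so this count says little about stability.

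Of 216 recomputed r values 14 changed sign. With CPM, the r with the interferon score became -0.196 for Cd276 and 0.0197 for Vtcn1, and with DESeq2's size factors it was -0.0263 for Cd276. The others came from leaving out 1 tumor, where r ranged, with the leukocyte score, from -0.638 to 0.144 for Cd276, -0.603 to 0.586 for Nectin2 and -0.140 to 0.557 for Lgals9; with the interferon score, from -0.225 to 0.674 for Cd276, -0.566 to 0.652 for Vtcn1, -0.840 to 0.0108 for Cd47 and -0.719 to 0.544 for Lgals9; and with the hypoxia score, from -0.537 to 0.610 for Cd276, -0.351 to 0.535 for Pvr and -0.292 to 0.0523 for Nectin2. The cause was not tested. Depth limits Cd274, Pdcd1lg2, Cd80 and Cd86, with at most 10 counts in any library.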
